A study of Homo sapiens with 6 samples.

Results

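Homologous recombination and DNA end resection were described through 9 genes: RBBP8 (which encodes CtIP), MRE11A, RAD50, NBN, EXO1, BRCA1, BARD1, PALB2 and BRCA2. They were taken by symbol from a table of 30403 genes, with earlier results of these data known. All 9 had a row and passed the filter on low counts. MRE11A is the older symbol of MRE11. The data were RNA sequencing counts from HK-2 cells, an immortalised line of human renal proximal tubule epithelium. Cells received a plasmid for a PARP1 shRNA (shPARP1, 3 libraries) or a control shRNA plasmid (shCtrl, 3 libraries) by lipid transfection and were harvested 48 h later. No other agent or genotype was named for either group. The question of the series is which genes depend on PARP1, the nuclear poly(ADP-ribose) polymerase that binds DNA breaks and chromatin.

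Homologous recombination repairs a broken chromosome by copying an intact sister, and is active mainly in S and G2 phase. It begins with end resection. The nuclease complex of MRE11, RAD50 and NBS1 (the NBN product), stimulated by CtIP, clips the end, and the exonuclease EXO1 or the nuclease DNA2 with the BLM helicase then extends the single-stranded tail. BRCA1 with its obligate partner BARD1 favours resection and recruits PALB2, which in turn brings BRCA2, the protein that starts strand exchange. Cells that lack BRCA1 or BRCA2 are highly sensitive to inhibitors of PARP1. Proximal tubule cells divide little in the healthy kidney, whereas HK-2 cells proliferate in culture.

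Bases that precede a RefSeq start are shown for RBBP8 and RAD50, the members with the largest rises, and for BRCA1, the most abundant of the members that rose. Each shown stretch lies inside the GENCODE 29 span of its gene given below, downstream of the outermost start. Each sequence comes from the 250 bases before a RefSeq start (GRCh38.p14), is written on the strand of the gene, and is cut to the longest stretch outside UTRs annotated by GENCODE 29, kept on only to complete a motif match. Capitals mark matches to 6 motifs that were searched on both strands of the full 250 bases.
RBBP8, upstream start, chr18:22933078-22933314, plus strand: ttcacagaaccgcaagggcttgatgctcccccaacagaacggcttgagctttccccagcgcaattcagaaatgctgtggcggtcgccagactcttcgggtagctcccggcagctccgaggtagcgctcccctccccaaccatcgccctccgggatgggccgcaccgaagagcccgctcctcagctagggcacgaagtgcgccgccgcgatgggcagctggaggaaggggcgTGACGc
RBBP8, downstream start, chr18:22933617-22933830, plus strand: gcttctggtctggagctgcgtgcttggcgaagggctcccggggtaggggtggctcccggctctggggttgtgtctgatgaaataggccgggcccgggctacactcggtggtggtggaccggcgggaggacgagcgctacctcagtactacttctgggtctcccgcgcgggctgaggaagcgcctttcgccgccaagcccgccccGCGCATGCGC
RAD50, chr5:132556839-132556937, plus strand: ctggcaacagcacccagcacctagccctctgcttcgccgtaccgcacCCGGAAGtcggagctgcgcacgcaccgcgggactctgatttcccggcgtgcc
BRCA1, chr17:43125484-43125614, minus strand: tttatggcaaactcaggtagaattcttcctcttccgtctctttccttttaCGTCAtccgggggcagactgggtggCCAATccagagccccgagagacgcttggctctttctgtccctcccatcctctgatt
The motifs were the CRE core TGACG, the ETS site CCGGAAG, the CCAAT box CCAAT and the cell-cycle element CHR (TTTGAA). The others were the E2F site (TTTCCCGC, TTTCGCGC, TTTGCCGC or TTTGGCGC) and the palindromic NRF1 site, which is the capital run in the downstream RBBP8 window. TGACG opens the cAMP response element (CRE) and is not the whole of it. Among 35116 RefSeq windows of this length, 21.2% held the CRE core, 8.52% the ETS site, 32% the CCAAT box, 13.3% CHR, 2.79% the E2F site and 1.03% the NRF1 site. The downstream window of RBBP8 held 1 NRF1 match, 46 bases before the start. The upstream window of RBBP8 held 1 CRE core, 19 bases before the start. RAD50 had 2 ETS matches, of which 1 is shown, and 1 CRE core that is not shown, MRE11A 2 CCAAT boxes and 1 ETS match, and the shown window of BRCA1 1 CCAAT box and 1 CRE core. BRCA1 has a second, upstream window that is not shown, with 1 CRE core. No CHR or E2F spelling was found in the windows of the 8 members that had one. These matches describe letters only. No window was matched for NBN.

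Library totals lay between 24429683 and 26269194 counts in shCtrl and between 29387853 and 32809303 in shPARP1, and 3 counts corresponded to between 0.0914 and 0.123 CPM (counts scaled to library size). PARP1 itself was at 262, 263 and 259 CPM in shCtrl and at 26.9, 26.2 and 28.8 CPM in shPARP1, which is -3.26 as log2 fold change (SE 0.04, edgeR adjusted p = 1.7e-51). Of 11 proximal tubule markers, 6 passed the filter, PAX8, CDH6 and GGT1 among them. Of these 6, 5 (83.3%) were called lower and 0 higher, beside 28.5% lower and 27.3% higher over all genes tested. The endocytic receptor gene LRP2 was at 0 in all 3 shCtrl libraries, and CUBN, ANPEP, SLC34A1 and MME reached at most 0.501 CPM in any library, so these defining markers of the tubule were nearly absent. The summed level of the 11 markers was 1342 to 1360 CPM in shCtrl and 923 to 944 CPM in shPARP1. Markers of other cell types summed to 13.95 to 15.5 CPM (leukocyte, 5 genes), 0.308 to 0.424 CPM (endothelial, 3 genes) and 81.7 to 85.7 CPM (fibroblast, 4 genes) in shCtrl and to 10.95 to 11.4, 0.227 to 0.336 and 68.6 to 73.4 CPM in shPARP1. The leukocyte sum was mostly CD14, which fell from 8.14 to 2.72 CPM, and CD68, which rose from 6.50 to 8.29 CPM. The fibroblast sum was mostly COL1A1 (68.6 and 63.6 CPM) and LUM (14.8 and 7.72 CPM), both called lower. CD3E, CDH5 and PDGFRA were at 0 in all 3 shPARP1 libraries, whereas DCN had 7 counts in shCtrl and 26 in shPARP1. The part of these markers in the results below was not tested. In RNA from a whole culture, fewer cells that express a gene and less RNA per cell cannot be told apart.

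After PARP1 knockdown 4 genes of the pathway's early steps were higher: RBBP8, RAD50, NBN and BRCA1. RBBP8 rose 2.01-fold, RAD50 1.53-fold, NBN 1.27-fold and BRCA1 1.147-fold, and MRE11A, EXO1, BARD1, PALB2 and BRCA2 did not pass the test. A gene was called when edgeR's quasi-likelihood test gave a Benjamini-Hochberg adjusted p under 0.05 over 16040 genes. By that rule 4 of 9 (44.4%) were higher and 0 lower, beside 27.3% higher and 28.5% lower over all genes tested. Without adjustment 1 member, MRE11A, had a p under 0.05 in the downward direction, and DESeq2 and limma-voom also called 0 lower. Called in either direction were 44.4% of the members and 55.7% of all genes. No overlap between the groups was seen for 6 members of 9 (66.7%), beside 60.1% of all genes tested. The median log2 fold change was 0.20 over the members and -0.01 over all genes. With 55.7% of all genes called, a call by itself does not set these genes apart.

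**Figure D1:**
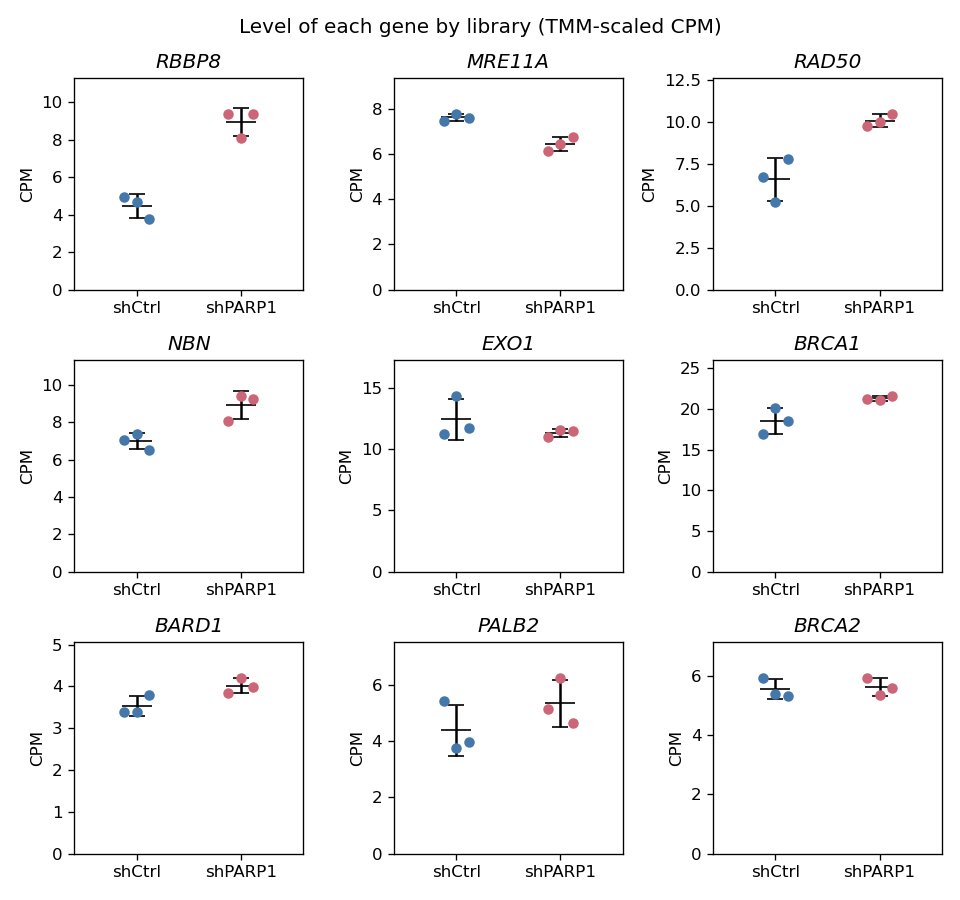
TMM-scaled CPM (vertical axes, from 0) of the 9 genes in 3 shCtrl (blue) and 3 shPARP1 (red) libraries; points are libraries, bars the mean and SD. RBBP8 and RAD50 are separated most widely between the groups, whereas the PALB2, BRCA2 and EXO1 points of the groups overlap.

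RBBP8 encodes CtIP, the cofactor that switches on the nuclease of the MRE11 complex. The gene (ENSG00000101773.16) lies on the plus strand of chromosome 18, from 22798261 to 23026488 (GRCh38, GENCODE 29). It was at 4.97, 4.66 and 3.77 CPM in shCtrl replicates 1 to 3 and at 9.38, 8.10 and 9.40 CPM in shPARP1 replicates 1 to 3. All 3 knockdown libraries lay above all 3 controls, and the lowest of them was well above the highest control. On the log2 scale the rise was 1.01 (SE 0.13, 95% interval 0.75 to 1.26, edgeR adjusted p = 8.4e-10). Of all genes tested, 408 (2.54%) had a higher log2 fold change. The rise rested on 338 counts in shCtrl and 839 in shPARP1. On the log2(FPKM + 1) scale, which compresses low genes, the difference was 0.63 (limma adjusted p = 8.5e-05).

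The other 6 annotated genes of the count table that overlap RBBP8 had at most 6 counts in any library. Among tested genes that averaged 5 CPM or more over all 6 libraries, the 3 whose profile over the 6 libraries lay closest to that of RBBP8, by Euclidean distance of mean-centred log2 CPM, were LTV1, PYCRL and PRMT6. Their distances were 0.18, 0.18 and 0.19 and their log2 fold changes 0.93, 0.95 and 0.94. LTV1 reached that mean through its knockdown libraries (3.57 CPM in shCtrl and 6.78 CPM in shPARP1). LTV1 takes part in assembly of the small ribosomal subunit, PYCRL in proline synthesis, and PRMT6 methylates arginine residues of histones.

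Of the 3 subunits of the MRE11 complex, RAD50 and NBN rose and MRE11A was not called. RAD50, the ATPase that bridges broken ends (ENSG00000113522.13, chromosome 5, 132556019 to 132646344, plus strand), was at 6.68, 5.24 and 7.77 CPM in shCtrl and at 9.71, 9.95 and 10.5 CPM in shPARP1. The knockdown libraries were close together and all above the controls, which spread more (SD 19.3% of the mean, beside 7.76% from counting alone). Its rise was 0.61 on the log2 scale (SE 0.12, 95% interval 0.38 to 0.85, edgeR adjusted p = 9.0e-06). It was 0.30 on the log2(FPKM + 1) scale (limma adjusted p = 0.0053).

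NBN encodes NBS1, the subunit that tethers the complex to chromatin and recruits the kinase ATM (ENSG00000104320.13, chromosome 8, 89933336 to 90003228, minus strand). It was at 7.06, 7.40 and 6.53 CPM in shCtrl and at 8.04, 9.43 and 9.23 CPM in shPARP1, without overlap. NBN rose by 0.35 on the log2 scale (SE 0.11, 95% interval 0.12 to 0.57, edgeR adjusted p = 0.0076). DECR1, a fatty acid oxidation gene that overlaps NBN on the opposite strand, had a log2 fold change of -0.12 (SE 0.08, edgeR adjusted p = 0.24).

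MRE11A, the nuclease subunit (ENSG00000020922.12, chromosome 11, 94415578 to 94493908, minus strand), was at 7.48, 7.78 and 7.57 CPM in shCtrl and at 6.13, 6.42 and 6.75 CPM in shPARP1. All 3 knockdown libraries were below all 3 controls. The log2 fold change of -0.24 (SE 0.12, 95% interval -0.48 to -0.01) did not pass the test (edgeR adjusted p = 0.0745). The direction was thus opposite to that of RAD50 and NBN.

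EXO1 extends resection beyond the clipped end (ENSG00000174371.16, chromosome 1, 241847967 to 241895148, plus strand). It was at 11.3, 14.4 and 11.8 CPM in shCtrl and at 10.99, 11.6 and 11.5 CPM in shPARP1. The groups overlapped, and shCtrl replicate 2 was the highest library. EXO1 had a log2 fold change of -0.14 (SE 0.10, 95% interval -0.33 to 0.05, edgeR adjusted p = 0.22), an interval that leaves out a rise of the size seen for RBBP8, RAD50 or NBN.

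**Figure D2:**
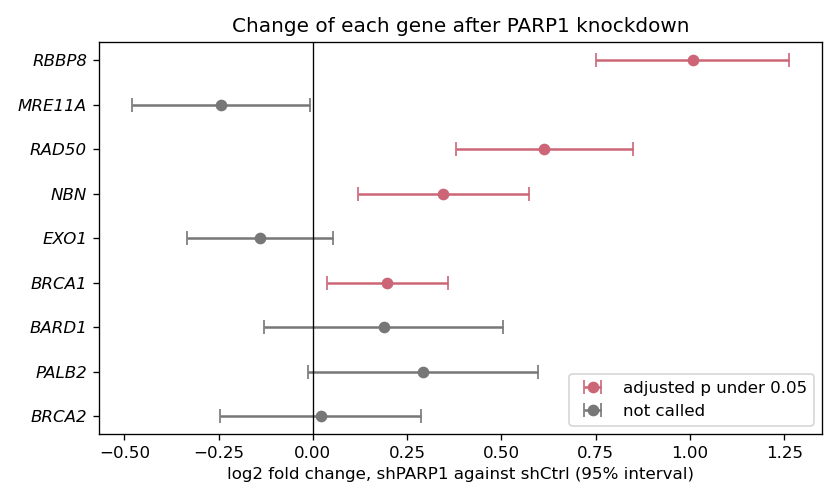
Log2 fold change of shPARP1 against shCtrl (horizontal axis) with its 95% interval for the 9 genes; red marks an edgeR adjusted p under 0.05. RBBP8 lies at 1.01 and RAD50 at 0.61, and the point of MRE11A lies at -0.24.

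Of the BRCA1 axis, BRCA1 alone was called. BRCA1, a ubiquitin ligase subunit that promotes resection (ENSG00000012048.19, chromosome 17, 43044295 to 43170245, minus strand), was at 17.0, 20.2 and 18.5 CPM in shCtrl and at 21.2, 21.1 and 21.7 CPM in shPARP1. All 3 knockdown libraries were above the controls, though only just above shCtrl replicate 2. BRCA1 rose by 0.20 on the log2 scale (SE 0.08, 95% interval 0.04 to 0.36, edgeR adjusted p = 0.0315). The call was lost when any of 4 single libraries was left out: shCtrl replicate 1 (edgeR adjusted p = 0.153), shPARP1 replicate 1 (0.0522), shPARP1 replicate 2 (0.0538) or shPARP1 replicate 3 (0.0738). It was also lost without a filter on low counts (0.0554) and on log2(FPKM + 1) (limma adjusted p = 0.0562) or log2(FPKM + 0.1) (0.0581).

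BARD1, the RING-domain partner that BRCA1 needs for stability (ENSG00000138376.10, chromosome 2, 214725646 to 214809711, minus strand), was at 3.38, 3.39 and 3.81 CPM in shCtrl and at 3.86, 4.21 and 3.996 CPM in shPARP1. The groups did not overlap but were close, and the log2 fold change of 0.19 (SE 0.16, 95% interval -0.13 to 0.50, edgeR adjusted p = 0.32) was of the size of that of BRCA1 with a wider interval. Its 268 counts in shCtrl were the fewest of any member.

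PALB2 links BRCA1 to BRCA2 (ENSG00000083093.9, chromosome 16, 23603160 to 23641310, minus strand). It was at 5.43, 3.74 and 3.96 CPM in shCtrl and at 5.13, 6.26 and 4.63 CPM in shPARP1. Replicate 1 of shCtrl lay within the range of the knockdown libraries. The log2 fold change of 0.29 (SE 0.15, 95% interval -0.01 to 0.60) was not called (edgeR adjusted p = 0.0984). Leaving out shCtrl replicate 1 gave a call (0.47, edgeR adjusted p = 0.0142) as did leaving out shPARP1 replicate 3 (0.38, edgeR adjusted p = 0.0494).

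BRCA2, which starts strand exchange (ENSG00000139618.14, chromosome 13, 32315474 to 32400266, plus strand), was at 5.93, 5.39 and 5.30 CPM in shCtrl and at 5.92, 5.35 and 5.57 CPM in shPARP1. The ranges lay on top of each other. The log2 fold change was 0.02 (SE 0.13, 95% interval -0.25 to 0.29, edgeR adjusted p = 0.91), so that a change between 0.844-fold and 1.22-fold is within its interval.

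Ratios of partner genes within a library do not depend on how libraries are scaled to each other. They were formed from FPKM, the authors' deposited values scaled by transcript length and library size, for 6 pairs. The exact permutation test (two-sided, 3 libraries against 3) cannot give a p below 0.1, and over 6 pairs the smallest adjusted value reached was 0.2. MRE11A per RAD50 was 1.23, 1.63 and 1.07 in shCtrl and 0.692, 0.710 and 0.708 in shPARP1, without overlap. By FPKM, MRE11A was thus the higher in every control library and RAD50 in every knockdown library. This order of 2 genes rests on the length behind FPKM, which is not given. In counts, shCtrl replicate 3 had 197 for MRE11A and 202 for RAD50. The difference in log2 ratio was -0.88 (exact p = 0.1, adjusted 0.2).

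NBN per RAD50 was 1.80, 2.39 and 1.43 in shCtrl and 1.42, 1.63 and 1.50 in shPARP1, a log2 difference of -0.27 with overlapping groups (exact p = 0.3, adjusted 0.36). RBBP8 per EXO1 was 0.412, 0.304 and 0.300 in shCtrl and 0.801, 0.659 and 0.770 in shPARP1. This was the widest shift of the 6, with a log2 difference of 1.14 (exact p = 0.1, adjusted 0.2). RBBP8 per NBN went from 0.927, 0.828 and 0.759 to 1.53, 1.13 and 1.34, also without overlap (log2 difference 0.66, exact p = 0.1, adjusted 0.2). By FPKM, CtIP transcripts were therefore below NBN transcripts in the controls and above them in the knockdown. In counts, shPARP1 replicate 2 had 250 for RBBP8 and 291 for NBN, so this order too rests on the length used.

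BRCA1 per BARD1 was 3.51, 4.204 and 3.42 in shCtrl and 3.89, 3.49 and 3.82 in shPARP1. The groups overlapped, and the log2 difference was 0.01 (exact p = 0.9, adjusted 0.9). PALB2 per BRCA2 was 2.76, 2.05 and 2.26 in shCtrl and 2.59, 3.50 and 2.48 in shPARP1, a log2 difference of 0.27 (exact p = 0.3, adjusted 0.36), again with overlap.

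**Figure D3:**
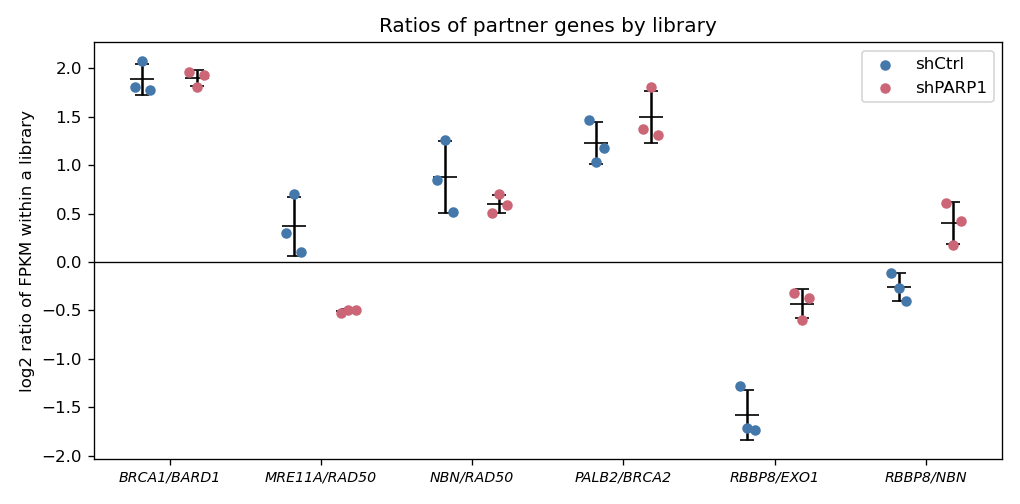
Log2 ratio of FPKM within a library (vertical axis) for 6 pairs of genes in 3 shCtrl (blue) and 3 shPARP1 (red) libraries; bars are the mean and SD. MRE11A per RAD50, RBBP8 per EXO1 and RBBP8 per NBN do not overlap between the groups, and BRCA1 per BARD1 does.

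All 9 genes were expressed at low to middling levels. Their mean CPM in shCtrl was above that of 31.6% (BARD1) to 60.5% (BRCA1) of the tested genes. Per length, mean FPKM in shCtrl fell in the order EXO1 (3.12), BRCA1 (2.06), NBN (1.247), RBBP8 (1.05), PALB2 (0.947), MRE11A (0.877), RAD50 (0.687), BARD1 (0.557) and BRCA2 (0.400). RBBP8 overlapped PALB2, PALB2 overlapped MRE11A and RAD50 overlapped BARD1 across libraries. In shPARP1 the order was EXO1 (2.92), BRCA1 (2.43), RBBP8 (2.17), NBN (1.64), PALB2 (1.19), RAD50 (1.08), MRE11A (0.760), BARD1 (0.653) and BRCA2 (0.420), and only PALB2 and RAD50 overlapped as neighbours. RBBP8 thus passed NBN and RAD50 passed MRE11A, while both ends of the order kept their places.

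Several members start beside a gene on the opposite strand. ANKRD49, whose start lies 279 bases from that of MRE11A and which overlaps it, had 28, 40 and 49 counts in shCtrl and 86, 75 and 94 in shPARP1. It rose (log2 fold change 0.83, SE 0.22, edgeR adjusted p = 0.00092), opposite in sign to MRE11A. DCTN5, a dynactin subunit gene 82 bases from the start of PALB2, fell by 0.18 on the log2 scale (edgeR adjusted p = 0.0105). NBR1, an autophagy receptor gene 236 bases from the most upstream start of BRCA1, fell by 0.19 (edgeR adjusted p = 0.0433). The sequence shown above for BRCA1 precedes a more downstream start. NBR2, a noncoding gene on the opposite strand within BRCA1, starts 44635 bases from the most upstream start. It was not called (log2 fold change 0.07, SE 0.20, edgeR adjusted p = 0.79). The DCTN5 call was lost without shCtrl replicate 2 (edgeR adjusted p = 0.227) or shPARP1 replicate 2 (0.0691) and with the length and GC offset (0.883), and on both FPKM scales (limma adjusted p = 0.224 and 0.227). The NBR1 call was lost without replicate 1 or 2 of either group (edgeR adjusted p = 0.0576 to 0.208) and in 6 other alternatives. ZAR1L, 130 bases from BRCA2, had at most 3 counts in a library, and a noncoding gene 518 bases from BARD1 at most 12. The strand setting of the counting is not given in the sources used here, so reads from overlapping genes on opposite strands may not have been kept apart.

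Calls in the wider pathway were about as frequent as over all genes. Of 62 further genes in 6 lists, 60 were tested, of which 16 were higher, 14 lower and 30 not called, with a median log2 fold change of 0.02. These are 26.7% higher and 23.3% lower, beside 27.3% and 28.5% of all genes tested. The count of higher genes ranged from 12 (DESeq2) to 21 (length and GC correction) over the alternatives. The count of lower genes fell to 9 without shCtrl replicate 1, shPARP1 replicate 1 or shPARP1 replicate 2, to 8 with DESeq2, to 7 after a correction for gene length and GC content and to 6 on both FPKM scales, so the near-even split depends on the setting.

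Among 17 tested strand-exchange genes, which act after resection, 6 were higher and 4 lower (35.3% and 23.5%, beside 27.3% and 28.5% of all genes). SHFM1 (the BRCA2-binding protein DSS1) rose from 35.0 ± 3.11 to 63.4 ± 4.26 CPM (log2 fold change 0.86). RPA3, the small subunit of the single-strand binding complex, went from 34.8 ± 0.518 to 48.0 ± 1.76 CPM (0.46). SWI5 (0.33) and RAD51C (0.44) rose too. SDs over 3 libraries follow the ± sign, and for the wider pathway a lone number in parentheses is a log2 fold change.

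The 11 genes of long-range resection and its regulation had 2 higher and 4 lower, with a median log2 fold change of -0.25, and 54.5% were called, beside 55.7% of all genes. The helicase gene BLM rose from 3.77 ± 0.0961 to 5.99 ± 0.130 CPM (0.67), whereas DNA2, the nuclease that works with BLM, went from 5.66 to 4.58 CPM and was not called (-0.30, edgeR adjusted p = 0.0638), except without shCtrl replicate 2 (0.0226) and after the length and GC correction (0.034). RMI2, a stabilising subunit of the BLM complex, fell from 23.5 ± 1.58 to 16.3 ± 0.369 CPM (-0.53), and SAMHD1, which recruits CtIP to breaks, fell (-0.36). DYNLL1, a dynein light chain that binds MRE11 and limits resection, rose from 190 ± 4.69 to 320 ± 4.66 CPM (0.75).

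In the 53BP1 axis, which shields ends from resection, 2 of 9 genes were higher and 2 lower (22.2% each, below the 27.3% and 28.5% of all genes). FAM35A, which encodes the shieldin subunit SHLD2 and has close copies in the genome that make its counts uncertain, rose from 4.56 ± 0.222 to 8.71 ± 0.769 CPM (0.93). MAD2L2, another shieldin subunit, rose (0.21). PAXIP1 fell from 17.7 ± 1.38 to 12.7 ± 0.575 CPM (-0.48), and TP53BP1 fell (-0.18). The TP53BP1 call was lost without shCtrl replicate 1 or 3 (edgeR adjusted p = 0.0943 and 0.0590) or shPARP1 replicate 2 (0.235), and with library totals alone (0.055) and on both FPKM scales (0.237 and 0.239), and after the length and GC correction its value was -0.0014 (0.986).

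Among 7 genes of BRCA1-containing complexes, 3 were higher and 1 lower, so that 57.1% were called, near the 55.7% of all genes. UIMC1 (RAP80), which brings BRCA1 to ubiquitin-marked chromatin, rose from 9.94 ± 1.02 to 13.4 ± 0.909 CPM (0.44), and its complex partners BABAM1 (0.32) and BRE (0.11) rose. TOPBP1 fell (-0.19). Of 17 alternatives, 7 lost the BRE call (adjusted p up to 0.157, without shCtrl replicate 1) and 11 the TOPBP1 call (up to 0.177, after the length and GC correction). Replicates 1 and 3 of both groups each ended the BRE call when left out, and shCtrl replicates 1 and 3 and shPARP1 replicates 1 and 2 the TOPBP1 call.

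Of 9 tested genes for joint molecules, the branched intermediates that end recombination, 1 was higher and 1 lower (22.2% called, beside 55.7% of all genes). These were the resolvase gene GEN1 (0.29, edgeR adjusted p = 0.0441) and the helicase gene FBXO18 (-0.13, edgeR adjusted p = 0.0276). GEN1 lost its call in 9 of 17 alternatives and FBXO18 in 11, each without any of 5 libraries: all but shCtrl replicate 3 for GEN1 and all but shCtrl replicate 1 for FBXO18. Of 7 break signalling genes, 2 were higher and 2 lower (28.6% each, near the 27.3% and 28.5% of all genes). The histone variant gene H2AFX rose from 187 ± 3.09 to 249 ± 12.1 CPM (0.42) and MDC1, which binds its phosphorylated form, rose (0.12). The checkpoint kinase genes ATR, from 8.44 ± 1.66 to 6.03 ± 0.608 CPM (-0.48), and CHEK2 (-0.22) fell. Of 17 alternatives, 8 lost the CHEK2 call (adjusted p up to 0.147) and 6 the MDC1 call (up to 0.181). Among them, the CHEK2 call was lost without replicate 1 or 2 of shCtrl or 1 or 3 of shPARP1 (edgeR adjusted p = 0.0667 to 0.128), the MDC1 call without replicate 2 or 3 of either group (0.094 to 0.181), and the ATR call only on the FPKM scales (limma adjusted p = 0.0699 and 0.0744).

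**Figure D4:**
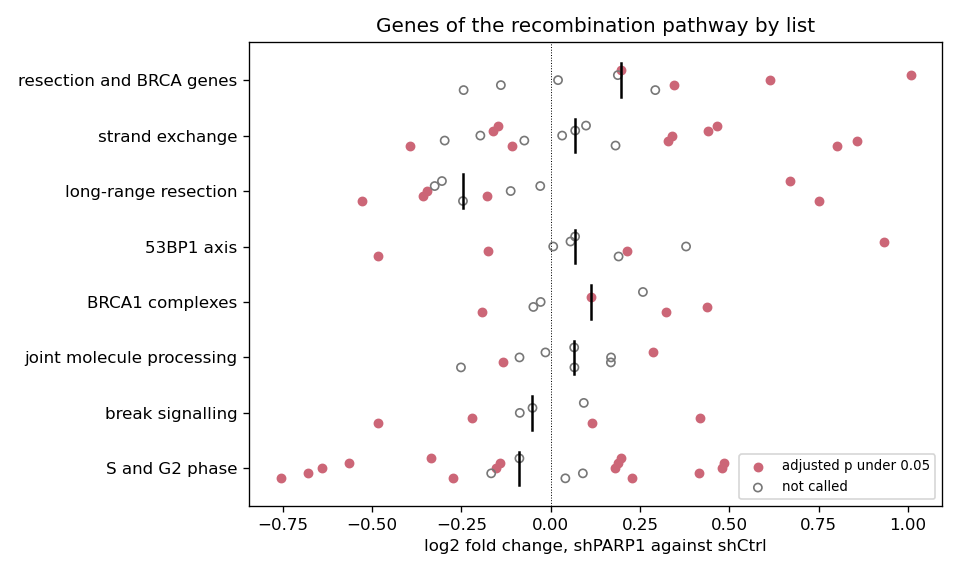
Log2 fold change of shPARP1 against shCtrl (horizontal axis) for each tested gene of the 9 resection and BRCA genes, 6 lists of the wider pathway and S and G2 phase genes; filled red points passed edgeR's adjusted p of 0.05 and black bars are list medians. Each list has points on both sides of 0, and the long-range resection median lies at -0.25.

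Recombination is active mainly in S and G2 phase, so genes of those phases and of entry into S phase are given beside the members. Of 19, 7 were higher (36.8%), 8 lower (42.1%) and 4 not called, beside 27.3% higher and 28.5% lower of all genes, and the median log2 fold change was -0.09. Their summed level was 1970 to 1996 CPM in shCtrl and 1961 to 2006 CPM in shPARP1, ranges that overlap. Abundant genes in this sum moved in opposite directions, such as MCM2 (390 to 310 CPM) and CCNB1 (156 to 208 CPM). The sum therefore cannot show whether the share of cells in each phase changed. The 4 called genes of smallest p were TOP2A (0.49) and CCNB1 (0.42), which rose, and CDK2 (-0.68) and the helicase gene MCM2 (-0.33), which fell. Other called genes of the list also went both ways. RRM2 (0.20) and TYMS (0.18) rose, and CDT1 (-0.27) and MKI67 (-0.14) fell. The summed level of the 9 members was 69.0 to 72.2 CPM in shCtrl and 80.4 to 83.2 CPM in shPARP1. The part of cell-cycle phase in the members' values was not tested.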

How the data were processed

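Polyadenylated RNA of 6 HK-2 libraries was sequenced in paired-end mode with a stranded kit, per the labels' protocols. The authors deposited read counts per gene, not normalized, and FPKM values with 2 decimals. GRCh38 was the build and TopHat2 and edgeR were among the tools, per the submitters' processing notes. Not given in the sources used here are the counting tool, its strand setting, the annotation release and the length behind FPKM. Labels do not say whether replicates were separate cultures, so the spread behind the p-values may be purely technical.

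The count model was edgeR 4.0.16 (R 4.3.3): filterByExpr (16040 of 30403 genes kept), TMM scaling, robust quasi-likelihood F test without a block, Benjamini-Hochberg adjustment over all tested genes. Intervals are 95% from the test's SE. The fit was tested on simulated data. Libraries of a group differed beyond sampling noise (chi-square over its degrees of freedom 2.54 to 4.63), so none was taken as a duplicate deposit of another, which does not show that they were separate cultures. Gene positions, exon lengths and GC content came from GENCODE 29 and promoter windows from RefSeq (8 of 9 members matched). Alternatives used other scaling factors, DESeq2 1.42.0, limma 3.58.1 (voom on counts, trend on log2 FPKM), other filters, a length and GC offset, a block for the replicate number, and fits that each omit 1 library. Named genes were the members, PARP1, up to 4 called genes of smallest p per list and the 3 genes nearest to RBBP8. Genes with an opposite-strand start within 1000 bases of a member's most upstream start were named too. DECR1, NBR2, DNA2, RRM2, TYMS, CDT1, MKI67 and some cell-type markers were named outside this rule, after their values were seen. Some listed genes are not reported here. Members and lists were chosen with earlier results of these data known.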

Additional observations from a re-analysis of the deposited data

How the results depend on the processing

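Of the 9 members, 4 were called higher with each of TMM, RLE and upper-quartile factors and library totals, with DESeq2, limma-voom, the stricter filter and the length and GC correction; 3 without a filter on low counts and with both FPKM fits, and 3 to 4 when leaving out 1 library. None was called lower in any of these 17 alternatives. An equal count did not always mean the same genes. Without shCtrl replicate 1 or without shPARP1 replicate 3, BRCA1 lost its call and PALB2 gained one. RBBP8 stayed called in all 17 (log2 fold change 0.63 to 1.09), as did RAD50 (0.30 to 0.76) and NBN (0.23 to 0.42, largest adjusted p = 0.0496). BRCA2 ranged from -0.019 to 0.070 when leaving out 1 library, negative without shCtrl replicate 3 (-0.010) and without shPARP1 replicate 1 (-0.019). The 14 lower genes of the wider pathway became 7 with library totals alone, 8 with DESeq2, 9 without a filter, 6 with log2(FPKM + 1), 6 with log2(FPKM + 0.1) and 7 with the length and GC correction, and 9 to 12 when leaving out 1 library; the cause was not tested. The log2 difference of BRCA1 per BARD1 ranged from -0.043 to 0.106 when leaving out 1 library. With the replicate number as a block, 4443 genes were higher and 4617 lower, against 4371 and 4566 without it, and no member's call changed. The labels link same-numbered libraries by number alone. Deviations of same-numbered libraries correlated at 0.036, -0.0042 and 0.036, beside -0.059 to 0.025 for unlike numbers. The values of numbers 1 and 3 were the largest, but not every library correlated best with its own number. So few libraries cannot decide whether the groups were paired. As paired differences, the MRE11A per RAD50 shift had an exact sign-flip p of 0.25, the smallest that 3 pairs allow. Members had 268 to 1993 counts per group, and for BARD1 counting alone gives an SD of 10.6% of the mean in shCtrl, so a change of that size in a single library cannot be told from counting noise.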
